A study of Mus musculus with 4 samples.

Results

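The genes described here encode the enzymes and carriers that move fatty acids into mitochondria and break them down, together with the enzymes that make and cleave acyl-CoA thioesters. They were chosen by symbol, as a list of 37 genes in 9 groups by biochemical step, and 33 of them were matched to a probe set among the 19505 named genes of the array. The synthetases Acsl1 and Acsl3, the electron carrier subunit Etfb and the nuclear receptor Ppard had no probe set matched and were not analysed here. Each of the 33 genes was read by 1 probe set.

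The samples were Neuro-2a cells, a mouse neuroblastoma line from strain A that is widely used as a neuronal cell model. Cells given 30 µM deltamethrin for 24 h (2 arrays) were compared with cells given the vehicle, 0.1% DMSO, for the same time (2 arrays). Deltamethrin is a pyrethroid insecticide that keeps voltage-gated sodium channels open. The design asks which messages differ in amount after the exposure, and the labels do not say that the arrays came from separate cultures, so the p-values measure only the spread between these arrays, which may be technical.

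Fatty acids are burned as acyl-CoA thioesters. Synthetases attach CoA, the carnitine shuttle carries the acyl group across the mitochondrial membranes, and beta-oxidation then shortens it in repeated rounds of dehydrogenation, hydration, dehydrogenation and thiolysis. Thioesterases run against activation: they split acyl-CoA back into free fatty acid and CoA. Neurons are known for low rates of fatty acid oxidation, and much of the brain's acyl-CoA handling serves membrane lipids and the control of free acyl-CoA.

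In deltamethrin-treated cells 1 of the 33 measured genes rose, Acot2, the thioesterase of the mitochondrial matrix, and 0 fell at an adjusted p below 0.05 in limma. In RNA taken from a whole culture, a change in the number of expressing cells and a change in RNA per cell cannot be told apart. Over all 22206 probe sets 0.356% rose and 0.0766% fell at that threshold. At an unadjusted p below 0.05 there were 6 members with higher levels and 0 with lower levels, where 6.83% of all probe sets were higher and 6.84% lower. Most members were bright, and among probe sets brighter than the median 0.684% rose and 10.2% were higher at that unadjusted p. Of these 6 members 4 were thioesterases (Acot2, Acot1, Acot13 and Acot8), and the others were the fatty acid binding protein gene Fabp3 and the neuronal carnitine acyltransferase gene Cpt1c. The 18 measured enzymes of beta-oxidation itself, mitochondrial and peroxisomal, held 0 genes at that unadjusted p, and their median log2 fold change was 0.03. With a mean-variance trend in limma, under which 15.9% of all probe sets had an unadjusted p below 0.05, 10 members did, among them 4 of these 18 enzymes (Etfa, Hadh and Eci2 higher, Hadha lower), and 0 of the 18 passed after adjustment.

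**Figure D1:**
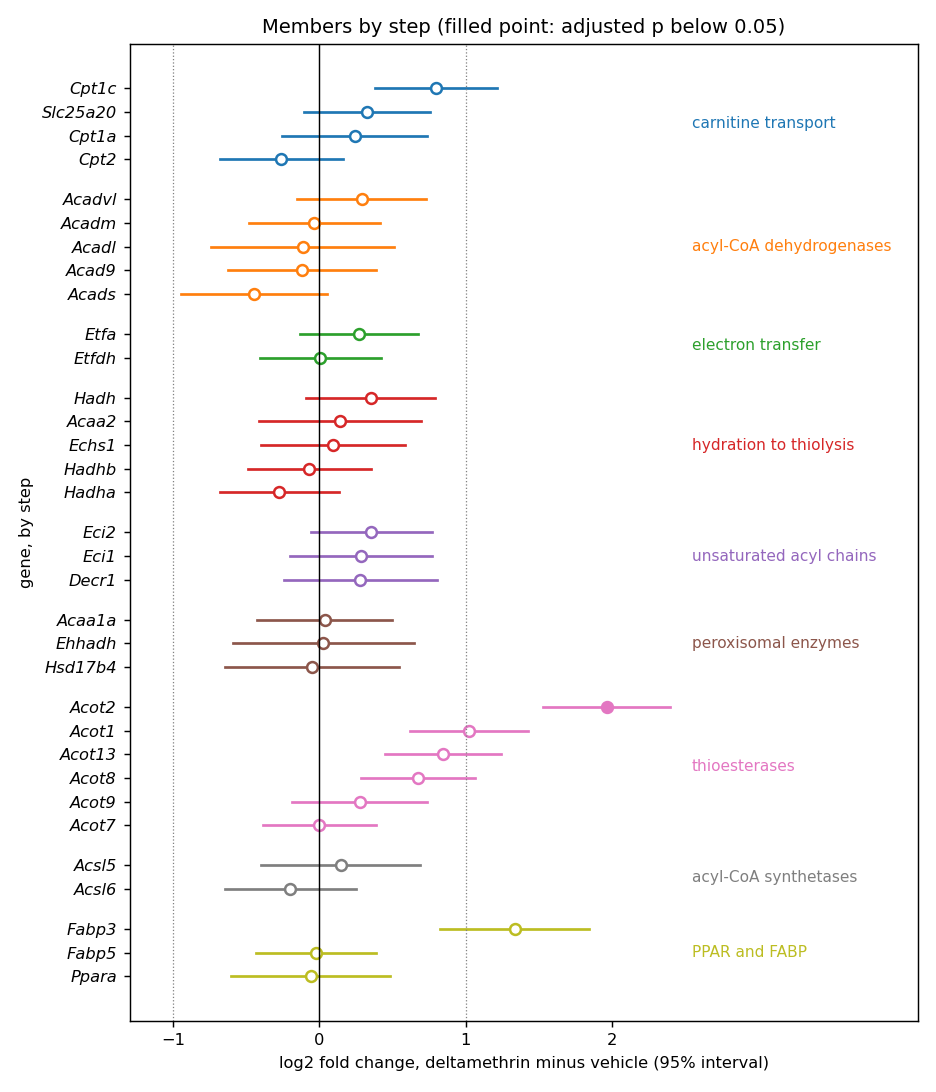
Log2 fold change (deltamethrin minus vehicle, x axis) with its 95% interval for the 33 measured genes, grouped by step down the y axis, with dotted lines at 2-fold either way and a filled point for an adjusted p below 0.05. Acot2 stands at 1.97, and the intervals of Acot2, Acot1, Acot13, Acot8, Fabp3 and Cpt1c lie above 0 while the others cross it.

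RefSeq promoters (GRCm38.p6) were matched by symbol for 31 of the 37 listed genes. The 250 bases before the annotated start are printed for the genes with an unadjusted p below 0.05 in limma (Acot13 is named only). Of these genes only Acot2 passed after adjustment. Capitals mark CCAAT boxes (CCAAT on either strand). The windows are chr12:83987611-83987860 on the plus strand for Acot2, chr12:84009252-84009501 on the plus strand for Acot1, chr2:164804882-164805131 on the minus strand for Acot8, chr4:130308488-130308737 on the plus strand for Fabp3 and chr7:44974852-44975101 on the minus strand for Cpt1c.
Acot2: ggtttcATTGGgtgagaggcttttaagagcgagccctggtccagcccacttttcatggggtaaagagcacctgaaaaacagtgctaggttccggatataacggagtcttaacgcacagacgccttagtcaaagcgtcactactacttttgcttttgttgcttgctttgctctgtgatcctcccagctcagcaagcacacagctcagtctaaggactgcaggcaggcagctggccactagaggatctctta
Acot1: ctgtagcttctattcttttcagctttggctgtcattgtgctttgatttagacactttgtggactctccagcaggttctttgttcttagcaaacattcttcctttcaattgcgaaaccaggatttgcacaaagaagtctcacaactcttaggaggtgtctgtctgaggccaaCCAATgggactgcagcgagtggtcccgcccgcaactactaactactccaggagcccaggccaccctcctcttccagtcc
Acot8: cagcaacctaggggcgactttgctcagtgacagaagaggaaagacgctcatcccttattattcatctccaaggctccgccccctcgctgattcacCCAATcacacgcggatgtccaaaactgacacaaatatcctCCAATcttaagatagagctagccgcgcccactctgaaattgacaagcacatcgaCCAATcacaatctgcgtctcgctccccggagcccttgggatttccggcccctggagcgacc
Fabp3: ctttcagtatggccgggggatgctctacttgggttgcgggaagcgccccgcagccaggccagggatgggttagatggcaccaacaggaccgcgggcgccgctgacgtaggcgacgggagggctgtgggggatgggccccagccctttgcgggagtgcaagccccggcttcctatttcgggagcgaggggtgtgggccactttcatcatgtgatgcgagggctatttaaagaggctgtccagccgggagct
Cpt1c: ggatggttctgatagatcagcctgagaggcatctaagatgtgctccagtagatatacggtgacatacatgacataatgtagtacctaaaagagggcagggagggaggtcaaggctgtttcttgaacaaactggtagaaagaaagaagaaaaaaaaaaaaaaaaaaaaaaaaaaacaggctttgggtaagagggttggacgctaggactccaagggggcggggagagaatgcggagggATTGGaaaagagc

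The Acot8 window holds 3 CCAAT boxes, which begin 155, 115 and 61 bases before the start. Those of Acot1, Acot2 and Cpt1c hold 1 each, at 79, 244 and 13 bases, and that of Fabp3 holds 0. A CCAAT box occurred in 18 of the 31 matched genes of the list (58.1%) and in 33.8% of all 32851 promoter windows of this length, and a GC box (GGGCGG, both strands) in 23 of 31 (74.2%) and in 32.7%. The CARE letters TGATGNAA, the composite element of C/EBP and ATF factors, occurred in Fabp3 and Echs1 among the 31 (6.45%) and in 3.45% of all windows. The repeat AGGNCANAGGNCA, a relaxed form of the element bound by PPAR and RXR, occurred in 0 of 31 and in 0.338% of all windows, and the E-box CACGTG in 0 of 31 and in 6.02%. A listed gene was counted once if any of its starts had the motif (2 had several starts), while all windows were counted singly. The shares are therefore not fully alike. Nor were the windows matched for base composition (the median GC content of all windows was 52.4%). The 31 genes also include Acsl1, Acsl3, Etfb and Ppard, which had no probe set matched. None of these motifs contains another, and a match in a window of this length describes the sequence only.

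Of the steps, the 6 listed thioesterases had the highest levels relative to vehicle. Their median log2 fold change was 0.76, against -0.02 over all probe sets. This does not extend to the 11 measured thioesterases outside the list, which had a median of 0.01. Of those 11, 6 had estimates above 0 and 5 below, and 7 were dim in both groups. In 5 of the 6 listed genes both deltamethrin arrays lay above both vehicle arrays. That order was shown by 20.3% of all probe sets and 26.4% of the brighter ones. Acot2 had log2 levels of 15.32 and 15.28 in deltamethrin-treated cells, against 13.48 and 13.19 in vehicle-treated cells. Its arrays lay nearly 2 units apart between groups and far closer within them. It rose by 1.97 ± 0.18 on the log2 scale (SE, limma adjusted p = 0.0191), a 3.90-fold difference with a 95% interval of 2.89 to 5.28, and ranked 38 by size of rise among the 22206 probe sets. When any 1 array was left out, the log2 fold change of Acot2 stayed between 1.82 and 2.11. Acot2 was not called in those fits, and neither was any other probe set. Each of those fits left 1 array in a group, so they cannot show how firm the call is.

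Acot1 encodes the cytosolic long-chain thioesterase and lies next to Acot2. Its log2 levels were 6.62 and 6.50 with deltamethrin and 5.59 and 5.48 with vehicle, so the groups were apart by more than the spread within either. The log2 fold change was 1.03 ± 0.17 (SE, adjusted p = 0.0865 in limma), and the vehicle mean of 5.54 lay just below the median of all probe sets (5.60). Acot13, which encodes a small thioesterase associated with mitochondria, was at 12.41 and 12.37 with deltamethrin, against 11.60 and 11.49 with vehicle. Its groups did not overlap either, and its log2 fold change was 0.85 ± 0.16 (adjusted p = 0.126). With a mean-variance trend in limma, by which 2.25% of all probe sets rose, both passed, at an adjusted p of 0.0435 for Acot1 and 0.00784 for Acot13.

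Acot8, the peroxisomal thioesterase, had log2 levels of 6.48 and 6.50 with deltamethrin and 5.79 and 5.84 with vehicle. Both groups were tight, and the log2 fold change was 0.68 ± 0.16 (adjusted p = 0.176 in limma, 0.169 with a mean-variance trend). Acot9, a second mitochondrial thioesterase, had the smaller estimate of 0.28 ± 0.19. Acot7, the cytosolic thioesterase abundant in brain, was at 14.54 and 14.51 with deltamethrin, against 14.52 and 14.53 with vehicle. Its vehicle arrays lay between its deltamethrin arrays, with a log2 fold change of 0.00 ± 0.16 and a 95% interval of -0.39 to 0.39, so the interval of this bright probe set excluded a 1.5-fold difference either way.

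**Figure D2:**
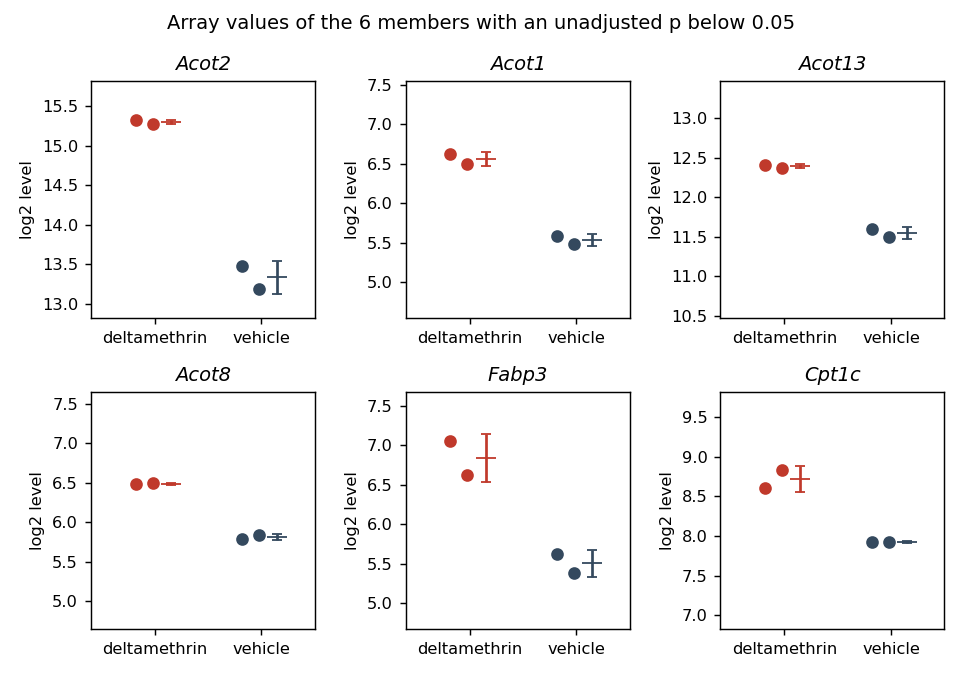
Log2 level (y axis, each panel spanning the same range of log2 units around its gene) on the 2 deltamethrin arrays (left) and the 2 vehicle arrays (right) for the 6 genes with an unadjusted p below 0.05, as points with the mean and SD beside them. In every panel both deltamethrin arrays lie above both vehicle arrays, from 15.32 and 15.28 against 13.48 and 13.19 for Acot2 to 6.48 and 6.50 against 5.79 and 5.84 for Acot8.

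Acot2 and Acot1 are part of a cluster of related thioesterase genes on chromosome 12, which RefSeq (GRCm38.p6) lists in the order Acot2, Acot1, Acot4, Acot3, Acot5 and Acot6. The other 4 are not on the list and are given for comparison. Acot4, which encodes a peroxisomal enzyme, was at 6.93 and 5.91 with deltamethrin and 5.53 and 5.64 with vehicle, so that 1 deltamethrin array set most of its estimate of 0.84 ± 0.33 (adjusted p = 0.346 in limma). Acot3, Acot5 and Acot6 were dim, with estimates of 0.01, 0.24 and 0.32. Outside the cluster, Riox1 on the Acot2 side was at -0.51 ± 0.28 and Dnal1 on the Acot6 side at 0.54 ± 0.24, and neither was called. The members of the cluster are close in sequence and probe sequences were not used here, so how far each probe set reads its relatives was not tested. The long non-coding gene Gm40474 comes between Acot1 and Acot4 in order of start position, and no probe set was matched to it.

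**Figure D3:**
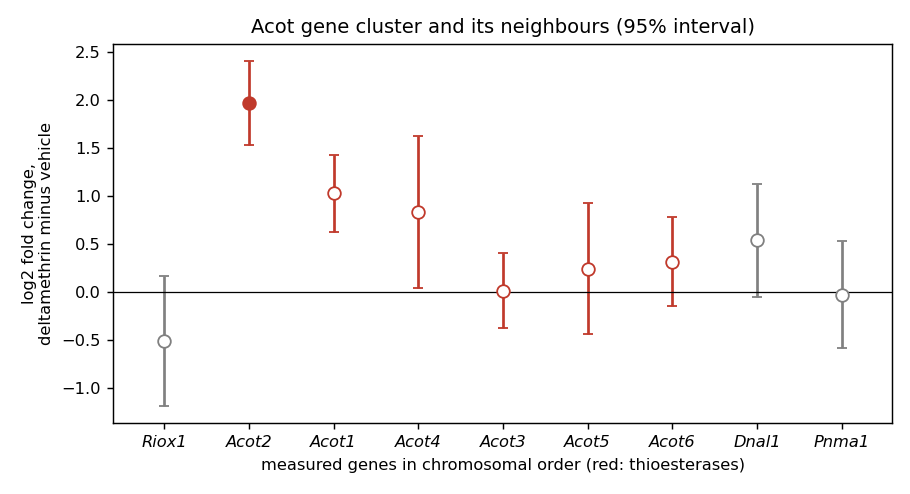
Log2 fold change (deltamethrin minus vehicle, y axis) with its 95% interval for the measured genes of the Acot cluster (red) and their measured neighbours (grey), in chromosomal order along the x axis, with a filled point for an adjusted p below 0.05. The estimates are 1.97 for Acot2, 1.03 for Acot1 and 0.84 for Acot4, and 0.01 to 0.32 for Acot3, Acot5 and Acot6.

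In the carnitine shuttle 0 of 4 genes were called, and the median log2 fold change was 0.28. Cpt1c encodes the neuronal member of the carnitine palmitoyltransferase 1 family, which sits in the endoplasmic reticulum, binds malonyl-CoA and has little transferase activity. It was at 8.61 and 8.84 in deltamethrin-treated cells, against 7.93 and 7.92 in vehicle-treated cells. The groups were well apart, with a log2 fold change of 0.80 ± 0.17 (adjusted p = 0.145 in limma, unadjusted p = 0.00305). The genes that carry out the transport had smaller estimates. Cpt1a, the malonyl-CoA-sensitive enzyme of the outer mitochondrial membrane, was at 0.24 ± 0.21 with overlapping groups, and the translocase gene Slc25a20 was at 0.33 ± 0.18. Cpt2, which re-forms acyl-CoA in the matrix, was at 5.54 and 5.74 with deltamethrin and 5.84 and 5.96 with vehicle, lower on both deltamethrin arrays by little, with an estimate of -0.26 ± 0.17.

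The acyl-CoA dehydrogenases, which take the first electrons from chains of different length, held 0 called genes among 5, with a median of -0.12. Acadvl, for very long chains, had the highest estimate, 0.29 ± 0.18, with 8.39 and 8.42 in deltamethrin-treated cells against 8.27 and 7.96 in vehicle-treated cells. Acads, for short chains, had the lowest, -0.45 ± 0.21 (unadjusted p = 0.0698), with 6.90 and 7.24 against 7.36 and 7.68. Both pairs of groups were separate, by 0.12 between their nearest arrays. The medium-chain gene Acadm, the long-chain gene Acadl and Acad9, whose product also serves complex I assembly, had estimates of -0.04, -0.12 and -0.12 with overlapping groups. The mean of these 5 genes, relative to each gene's vehicle mean, was -0.26 on deltamethrin array 1 and 0.09 on deltamethrin array 2, so the arrays of the exposed cells did not share a direction.

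Electrons from these dehydrogenases pass to the electron transfer flavoprotein and its ubiquinone oxidoreductase. The flavoprotein's alpha subunit gene Etfa was at 13.54 and 13.70 with deltamethrin and 13.34 and 13.36 with vehicle, and its estimate was 0.27 ± 0.17. The oxidoreductase gene Etfdh was at 11.79 and 12.00 with deltamethrin and 11.91 and 11.87 with vehicle, with overlapping groups and an estimate of 0.01 ± 0.17. Neither was called, and the 95% intervals of both lay within 2-fold.

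The later steps of the mitochondrial spiral also held 0 called genes among 5, with a median of 0.09 that did not keep its sign. It was -0.06 without deltamethrin array 1, -0.01 without deltamethrin array 2, 0.04 without vehicle array 1 and -0.08 without vehicle array 2. Hadha and Hadhb encode the alpha and beta subunits of the trifunctional protein, which carries out hydration, the second dehydrogenation and thiolysis of long chains. Hadha was at 13.78 and 13.95 with deltamethrin, against 14.10 and 14.18 with vehicle, lower on both arrays with an estimate of -0.28 ± 0.17. Hadhb had an estimate of -0.07 ± 0.18. Hadh, the dehydrogenase for shorter chains, was at 12.77 and 12.48 with deltamethrin and 12.34 and 12.21 with vehicle, with an estimate of 0.35 ± 0.18. The hydratase gene Echs1 and the thiolase gene Acaa2 had estimates of 0.09 and 0.14 and overlapping groups.

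Unsaturated chains need auxiliary enzymes that shift or reduce double bonds. All 3 measured genes had positive estimates, from 0.28 to 0.36, and 0 were called. Eci2, an enoyl-CoA isomerase of mitochondria and peroxisomes, was at 11.55 and 11.44 with deltamethrin, against 11.05 and 11.23 with vehicle, and its estimate was 0.36 ± 0.17. Decr1, the mitochondrial dienoyl-CoA reductase, was at 9.26 and 9.75 with deltamethrin and 9.31 and 9.14 with vehicle. Its groups overlapped, as did those of the isomerase gene Eci1, so a shared shift of this size was not separated from the spread between arrays. The median of the 3, 0.29, was 0.46 without deltamethrin array 1 and 0.11 without deltamethrin array 2, and Decr1 was at 0.53 and 0.04 in those fits.

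In peroxisomes, which shorten very long and branched chains, the 3 measured enzymes had estimates from -0.05 to 0.04 with a median of 0.03, and 0 were called. The thiolase gene Acaa1a was at 6.47 and 6.46 with deltamethrin and 6.62 and 6.24 with vehicle. Hsd17b4, which encodes the D-bifunctional protein, was at 11.09 and 11.38 with deltamethrin and 10.98 and 11.59 with vehicle. In both genes the deltamethrin arrays lay between the vehicle arrays. The L-bifunctional protein gene Ehhadh was dim, with means of 5.24 and 5.22 in deltamethrin-treated and vehicle-treated cells.

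Of the long-chain acyl-CoA synthetases, Acsl5 and Acsl6 were measured. Acsl5, found at mitochondria and the endoplasmic reticulum, was at 12.42 and 12.51 with deltamethrin, against 12.04 and 12.60 with vehicle, an estimate of 0.15 ± 0.23. Acsl6, a brain synthetase linked to docosahexaenoic acid in membranes, was at 8.73 and 9.03 with deltamethrin and 9.01 and 9.15 with vehicle, an estimate of -0.20 ± 0.19. The groups overlapped for both genes.

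Fabp3 encodes the heart-type fatty acid binding protein, a cytosolic carrier also found in neurons. It was at 7.06 and 6.63 in deltamethrin-treated cells, against 5.63 and 5.39 in vehicle-treated cells. The groups were separate by 1.0 unit between their nearest arrays, and the log2 fold change was 1.34 ± 0.21 (adjusted p = 0.0814 in limma). It passed with a mean-variance trend (adjusted p = 0.0217), and its vehicle mean of 5.51 lay below the median of all probe sets, so its fold rests on a dim value. Fabp5, the epidermal-type carrier and the brighter probe set of the pair, had an estimate of -0.03 ± 0.17, with 10.97 and 11.08 with deltamethrin and 10.97 and 11.13 with vehicle. Ppara, the nuclear receptor that drives fatty acid oxidation genes in liver, was dim in both groups, at 5.08 and 4.51 with deltamethrin and 4.86 and 4.85 with vehicle.

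**Figure D4:**
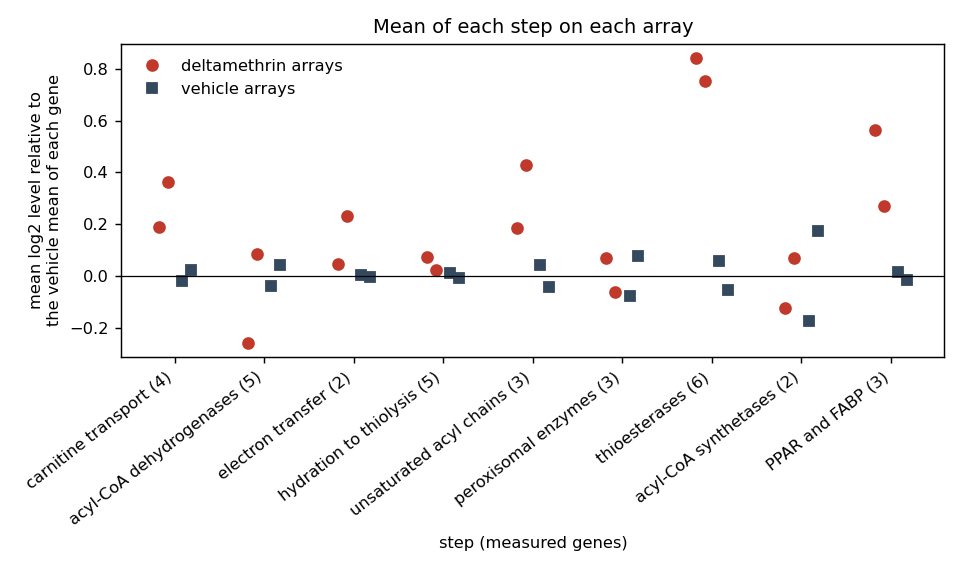
Mean log2 level of the measured genes of each step on each array (y axis), relative to each gene's vehicle mean, with deltamethrin arrays as red circles left of vehicle arrays as dark squares, and steps with their number of measured genes along the x axis. The thioesterases lie at 0.84 and 0.75 on the deltamethrin arrays, while the hydration-to-thiolysis and peroxisomal steps lie within 0.08 of 0.

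Across the list, 21 of 33 estimates were above 0 and 11 below, where 46.4% of all probe sets were above 0. Both deltamethrin arrays lay above both vehicle arrays for 12 genes and below them for 3, where 20.3% and 23.5% of all probe sets did so. Without the 6 thioesterases, the other 27 genes had a median of 0.04. The 95% interval lay within 2-fold either way for 27 of the 33 genes, against 84.5% of all probe sets, and the 6 exceptions were the genes with an unadjusted p below 0.05. All 18 beta-oxidation enzymes were among the 27. A value that was not called does not show that a transcript stayed level.

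Of 90 further genes of the pathway in 7 lists, 83 were measured, of which 1 rose and 0 fell, while 9 were higher and 1 lower at an unadjusted p below 0.05. Over all probe sets these shares were 0.356% and 0.0766% for calls and 6.83% and 6.84% at the unadjusted p, and 10.2% of the brighter probe sets were higher, so the 9 of 83 are close to the background. The riser was Plin2, a lipid droplet coat protein and known PPAR target, at 11.55 and 11.75 with deltamethrin and 9.23 and 9.74 with vehicle. It rose by 2.17 ± 0.22 (limma adjusted p = 0.0261). The list of PPAR targets and partners had a median of -0.06 over 15 measured genes, and 10 of these 15 were dim in both groups. Pparg, the PPAR of fat cells, was at 1.07 ± 0.31 (adjusted p = 0.224).

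Among genes of fatty acid entry and activation, Slc27a1, the fatty acid transport protein FATP1, was at 10.03 and 10.09 with deltamethrin, against 8.68 and 8.96 with vehicle. Its groups were more than 1 unit apart, with a log2 fold change of 1.24 ± 0.18 (adjusted p = 0.0650 in limma). Its relative Slc27a4 was at 0.80 ± 0.27 (adjusted p = 0.286), and the median of that list was 0.16 over 12 genes. In the carnitine and malonyl-CoA list (median 0.17 over 7 genes), Crat, which moves acetyl groups between CoA and carnitine, was at 10.50 and 10.61 with deltamethrin, against 10.93 and 11.33 with vehicle. It was the gene of lowest estimate in that list, at -0.58 ± 0.20 (adjusted p = 0.294).

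The other lists had medians close to 0 and 0 called genes. Hibch, of valine breakdown, led 16 other mitochondrial genes (median 0.12) at 0.71 ± 0.16 (adjusted p = 0.163). Among 14 other peroxisomal genes (median 0.09), Acox3, an acyl-CoA oxidase for branched chains, was at 0.62 ± 0.16 (adjusted p = 0.202), and Phyh and Amacr, which also act on branched chains, were at 0.60 and 0.56 (adjusted p = 0.221 and 0.244). The other thioesterases, 11 genes including Acot4, had a median of 0.01, and 7 of them were dim in both groups. The list of flavin and electron transfer support genes, which also holds complex I assembly factors, had a median of 0.04 over 8 genes. Among those factors was Ndufaf1, the gene of smallest p in the list, at 0.34 ± 0.19. Slc27a4, Pparg, Phyh and Amacr were named after their values were seen.

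**Figure D5:**
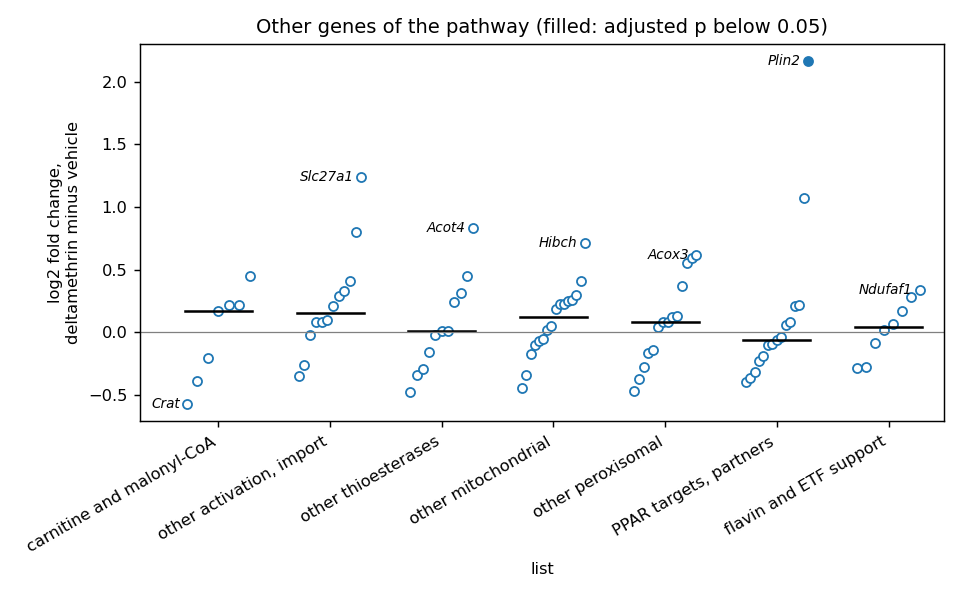
Log2 fold change (deltamethrin minus vehicle, y axis) of 83 further genes of the pathway in 7 lists (x axis), with the median of each list as a black bar, the gene of smallest p named and a filled point for an adjusted p below 0.05. Plin2 stands at 2.17, and the list medians run from -0.06 to 0.17.

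The arrays' medians lay between 5.61 and 5.63. Of the sympathoadrenal and neuronal markers, 11 were measured, among them Stmn2, Ret, Chgb, Hand2 and Isl1. Their vehicle means ran from 6.62 for Th to 16.71 for Stmn2, and Th was the 1 marker with an estimate above 0 (0.90 ± 0.27). Of these 11, 10 had estimates below 0 with deltamethrin (median -0.50) and 0 were called in limma, with 6 lower and 1 higher at an unadjusted p below 0.05 (6.84% and 6.83% of all probe sets), and their part in the values above was not tested. Markers of fibroblasts, macrophages and glia were dim in both groups for 4 of 5, 4 of 5 and 4 of 4 measured genes. Of these markers 0 were called, with 2 higher and 1 lower at an unadjusted p below 0.05. The sources used here gave no scan date or processing day, so a batch effect and the treatment cannot be told apart.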

How the data were processed

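Expression was read on 4 Affymetrix Clariom S Mouse arrays from 500 ng of total RNA with an integrity number over 9.0, per the labels' protocols. The authors deposited 1 log2 level per probe set and array. The submitters' processing notes name RMA and Transcriptome Analysis Console and give no version. That the scale is log2 was judged from the range, 1.92 to 18.75. RMA aligns the arrays, so a shift of most genes would not be seen, and no detection call was used, so dim means below the median probe set (5.60).

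Symbols came from the platform annotation, matched by Entrez ID to RefSeq: 19572 probe sets had 1 symbol, 2634 were unnamed here and 0 had several. Deltamethrin minus vehicle was fitted with limma 3.58.1 (R 4.3.3, lmFit and eBayes, no trend, no block) over 22206 probe sets, two-sided, with Benjamini-Hochberg adjustment over all of them and a call at an adjusted p below 0.05. The fit left 2 residual and 4.43 prior degrees of freedom. Precision is limited by having 2 arrays a group, and the median SE was 0.19. The fit was tested on data simulated from its own variance model with independent arrays. Such data cannot show the effect of shared cultures, a batch or a mean-variance trend. Values are log2 levels, and "estimate" means a log2 fold change ± SE (2 arrays per group).

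The members, the lists and the tests were chosen with earlier results of these data known. Values on every array were given for called members, those with an unadjusted p below 0.05 and the highest and lowest of each step. Of the further lists, the called genes and the gene of smallest p were named, only some of them with array values. The fit was repeated with a replicate block, probe sets above the 40th percentile of mean level, 3 further normalizations, 3 variance models and array weights. It was also repeated leaving out each array, with 1 probe set per gene and with other thresholds on the adjusted p.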

Additional observations from a re-analysis of the deposited data

How the results depend on the processing

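Acot2 kept its direction under all 16 alternatives run, with log2 fold changes from 1.82 to 2.11, and its call under 9 of them. It was the 1 called member under quantile, cyclic loess and median scaling, robust moderation, array weights and 1 probe set per gene. With limma on probe sets above the 40th percentile of mean level, 4 members were called. These were Acot2, Acot1 and Acot13 (3 thioesterases) and Fabp3 (1 carrier). The same 4 were called with a mean-variance trend. At an adjusted p below 0.1 there were 3 (2 thioesterases and Fabp3). There were 0 (0 thioesterases) at an adjusted p below 0.01, with the replicate block and without moderation. Over all probe sets the 96 calls became 312, 806, 233, 5, 0 and 0 under those settings. Leaving out 1 array, where the array left alone was given the spread of the other group, gave 0 to 0 calls for all probe sets, for members and for thioesterases, with 6 members and 1631 to 2779 probe sets at an unadjusted p below 0.05. The replicate numbers are not said to pair arrays. Same-numbered arrays deviated together with a correlation of 0.13 over all probe sets, and with the block the adjusted p of Acot2 was 0.171, while 7 members and 3221 probe sets had an unadjusted p below 0.05; without moderation these were 6 and 2293.

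The other 5 genes with an unadjusted p below 0.05 kept their direction under every alternative run. Signs of small estimates turned when 1 array was left out, in ranges of -0.19 to 0.12 for Acadm, -0.48 to 0.25 for Acadl, -0.36 to 0.12 for Acad9, -0.10 to 0.11 for Etfdh, -0.18 to 0.035 for Hadhb, -0.12 to 0.40 for Acaa2, -0.08 to 0.26 for Echs1, -0.16 to 0.23 for Acaa1a, -0.32 to 0.37 for Ehhadh, -0.36 to 0.26 for Hsd17b4, -0.14 to 0.43 for Acsl5, -0.35 to 0.23 for Ppara and -0.11 to 0.055 for Fabp5. Acaa1a also turned to -0.017 with quantile normalization. The thioesterase median stayed between 0.75 and 0.78 without any 1 array, and that of the acyl-CoA dehydrogenases ran from -0.36 to 0.12. Those of the peroxisomal enzymes (-0.09 to 0.14), the acyl-CoA synthetases (-0.20 to 0.15) and the PPAR and FABP genes (-0.06 to 0.23) changed sign too, and those of carnitine transport (0.22 to 0.35) and electron transfer (0.05 to 0.23) did not. The cause was not tested. With 2 arrays per group, precision was limited for every gene. Ehhadh and Ppara were dim in both groups, and the vehicle means of Acot1 and Fabp3 lay below the median probe set. The SEs of these 4 genes were 0.26, 0.23, 0.17 and 0.21, against a median of 0.19 over the members. The largest SE among the members, 0.26, was that of the bright gene Acadl.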
